A study of Mus musculus with 2 samples.

Results

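The genes described here encode the proteins of the mitochondrial ribosome. They were taken by symbol, as every row whose name begins with Mrpl or Mrps and a digit, without the rows marked as pseudogenes, and number 78 of the 54532 genes in the deposited count table. RNA of interscapular brown adipose tissue was sequenced in 2 libraries. The rheb BAD KO library (KO in the values below) pools 3 mice of genotype Ucp1-cre; rheb FL/FL, in which Cre is driven by the promoter of Ucp1, a gene of brown adipocytes. The control library pools 3 rheb FL/FL littermates without Cre in their label. Both alleles of Rheb were thus floxed in both groups, the mice were C57BL/6J, 1 month old and labelled male, and no treatment is given. Since each group is a single pool, the spread between mice is unknown and no p-value was computed. Intervals are 95% exact binomial (Clopper-Pearson) intervals and cover counting error only.

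Mitochondrial ribosomes sit at the inner mitochondrial membrane and translate the few respiratory chain subunits that are encoded by mitochondrial DNA. Their ribosomal RNAs are transcribed inside the organelle, whereas all their proteins are encoded in the nucleus, made in the cytosol and imported. Names starting with Mrpl stand for proteins of the large subunit, which forms peptide bonds, and names starting with Mrps for proteins of the small subunit, which reads the messenger RNA. Some sit where a homolog sits in bacterial ribosomes, and others, called mitochondria-specific here, hold positions that no bacterial protein holds. Brown adipocytes are rich in mitochondria, and Rheb, a small GTPase, activates the kinase complex mTORC1, which controls growth and translation. The question here is whether transcripts of this machinery differed in the tissue when Rheb was deleted in brown adipocytes.

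The rheb BAD KO library held 23699316 counts and the control library 21855229. Counts were scaled for library size with TMM factors, which gives CPM. Rheb itself had 568 counts in the KO library and 1037 in the control library, a ratio of 0.553 (0.499 to 0.613). These counts cover all cells of the tissue and the whole gene. Of 5 sex-linked transcripts, the 4 from the Y chromosome had 259 to 2653 counts in the KO library and at most 1 in the control library, and Xist had 4 counts in the KO library and 7452 in the control library. The male label of the control library is at odds with these counts. With 1 library in each group, no value can be given without it, and genotype and sex-linked expression cannot be told apart. None of the 78 genes lies on the X or Y chromosome.

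Cell type markers differed as well. Of 15 skeletal muscle markers, 14 passed the filter and all 14 were lower in the KO library, where they summed to 339 CPM, against 3230 CPM in the control library, and Tnnc2 was at 0 counts in both. The 9 macrophage markers summed to 193 CPM in the KO library and 104 CPM in the control library, with 6 of 9 higher, and the 5 erythroid markers to 5823 CPM in KO and 2263 CPM in control, with 5 of 5 higher. The 5 neutrophil markers summed to 33.0 CPM in KO and 3.45 CPM in control, with both of the 2 kept higher, and the 6 fibroblast markers to 348 CPM in KO and 214 CPM in control, with 3 higher and 1 lower. The 9 brown adipocyte markers summed to 12391 CPM in the KO library and 12711 CPM in the control library, with 3 higher and 1 lower. Muscle, blood and stromal cells also carry mitochondrial ribosomes, and the part of these cell types in the values below was not tested. In bulk tissue, fewer cells of a type and less RNA per cell cannot be told apart.

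Most of these genes had lower counts in the KO library. Of the 78, 77 averaged 1 CPM or more across the libraries and were kept. A gene was called higher or lower where its ratio of rheb BAD KO over control reached 1.5-fold on the log2(CPM + 0.5) scale and its counting interval excluded 1. By this rule 27 of the 77 were lower, 1 was higher and 49 lay between. Over all 12973 genes kept, 21.9% were lower and 21.9% higher, so that the share of these genes called lower (35.1%) stood above the background and the share called higher (1.30%) below it. In all 64 of the 77 genes (83.1%) had a log2 ratio below 0, against 50.1% of all genes kept. The median log2 ratio was -0.36, with quartiles of -0.69 and -0.08, beside a median of -0.003 over all genes. The SD over the genes was 0.46, against 0.87 for all genes kept.

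With total counts in place of TMM the median of all genes moved to -0.13 and that of the mitochondrial ribosomal protein genes to -0.49. With total counts that leave out mitochondrially encoded genes and their chromosome 1 pseudogenes, both medians moved up, to 0.12 and -0.23. The distance between these genes and all genes was -0.36, -0.36 and -0.35 under the 3 scalings. A change of scaling shifts all log2 ratios nearly alike, so this distance could hardly change and is no check of the result. Over all genes, total counts gave 2258 higher (17.4%) and 3527 lower (27.2%) and the reduced total 3788 higher (27.1%) and 2532 lower (18.1%), against 2839 in each direction with TMM. Among the 77 genes, total counts gave 33 lower and none higher, and the reduced total 19 lower and 2 higher, Mrps18a and Mrps26. Summed over the 78 genes, the KO library held 87723 counts and the control library 108468, a ratio of scaled sums of 0.817 (0.810 to 0.824).

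**Figure D1:**
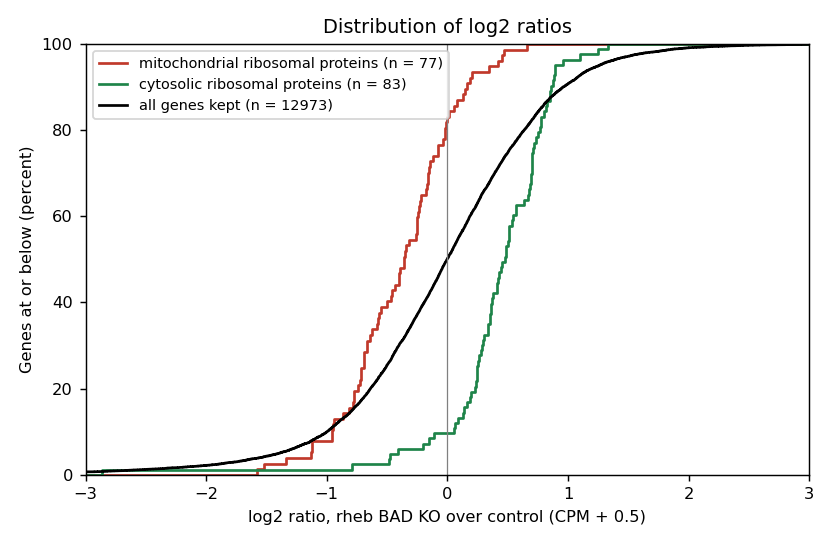
Cumulative share of genes (vertical axis, percent) at or below each log2 ratio of rheb BAD KO over control (horizontal axis, CPM + 0.5), for mitochondrial ribosomal protein genes, cytosolic ribosomal protein genes and all genes kept. At 0, 83.1% of the mitochondrial, 9.64% of the cytosolic and 50.1% of all genes lie to the left.

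By counting error alone, 55 of the 77 intervals lay below 1, 10 lay above 1 and 12 included 1. Counts of single kept genes ran from 230 to 4621 in the KO library and from 486 to 4042 in the control library. A counting interval had a median half-width of 0.12 on the log2 scale, much narrower than the distance between the lowest and highest genes (-1.58 to 0.66).

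**Figure D2:**
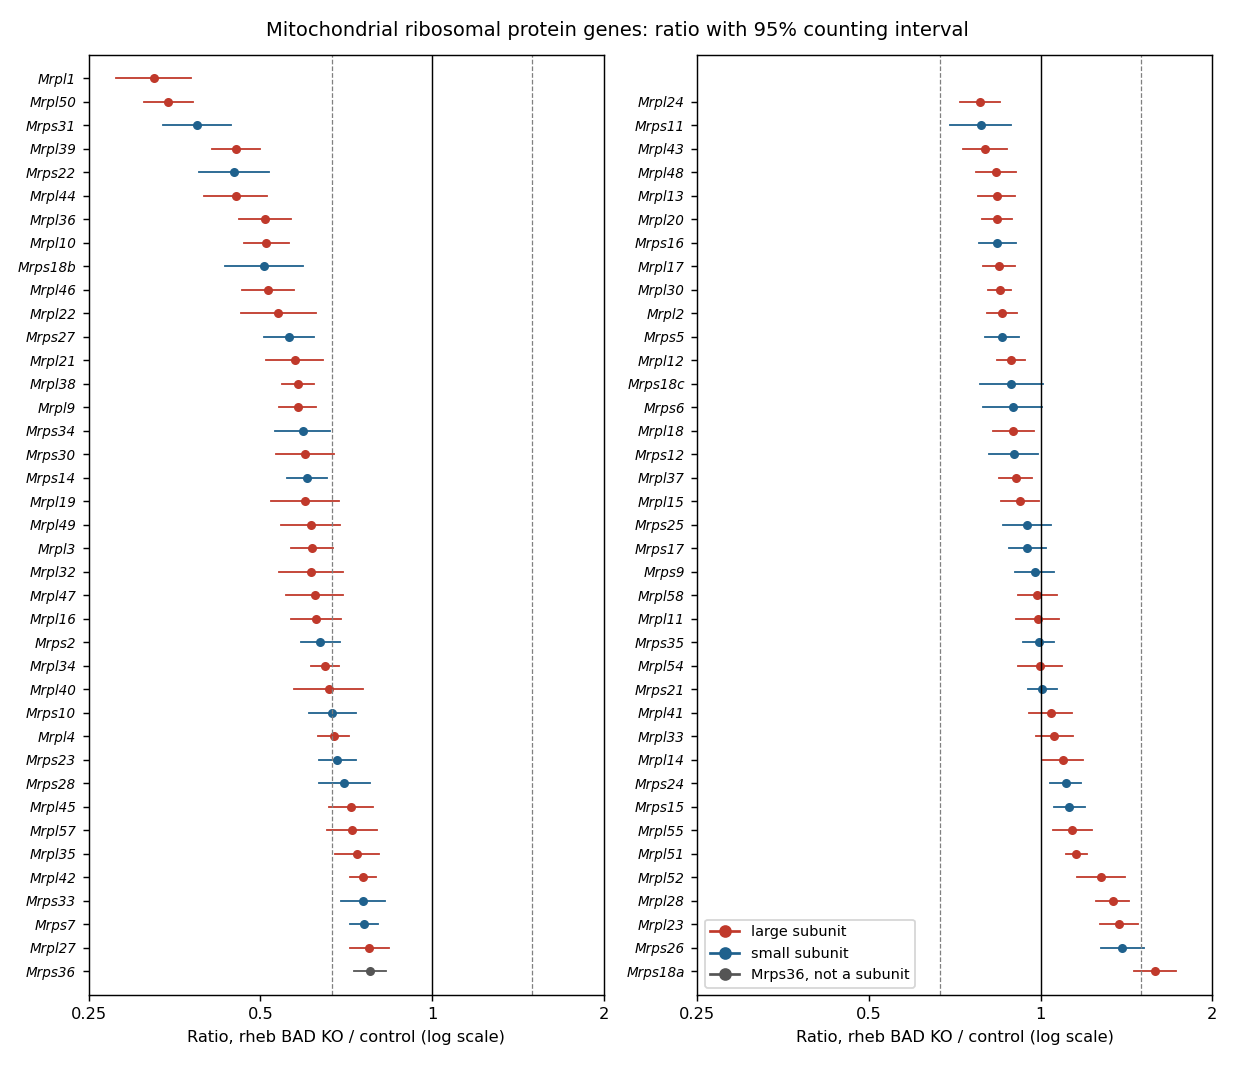
Ratio of scaled counts, rheb BAD KO over control, for the 77 genes kept, in rising order of log2 ratio from the top left to the bottom right, on a log scale. Points are ratios of 1 library over the other (red for the large and blue for the small subunit, grey for Mrps36), bars are 95% counting intervals and dashed lines mark 1.5-fold; 27 genes lie past the left line and Mrps18a past the right one.

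The lowest ratios belonged to proteins of both subunits. Mrpl1 (ENSMUSG00000029486, chromosome 5, 96209493 to 96266727, plus strand, mm10) encodes the protein of the stalk near the site where used transfer RNAs leave the large subunit. It had 230 counts in the KO library and 715 in the control library, a ratio of 0.325 (0.279 to 0.377). Mrpl50 (ENSMUSG00000044018, chromosome 4, 49512596 to 49521093, minus strand), a large subunit protein with no bacterial counterpart, had 537 KO and 1573 control counts and a ratio of 0.345 (0.312 to 0.381). Mrps31 (ENSMUSG00000031533, chromosome 8, 22411361 to 22429665, plus strand), a mitochondria-specific protein of the small subunit, had 292 KO and 761 control counts and a ratio of 0.388 (0.337 to 0.444). These 3 genes had the lowest ratios of the list, and none of their exons overlapped another gene.

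A further 3 genes had ratios under 0.5, which makes 6 lower and none higher at the 2-fold rule. Over all genes this rule gave 9.97% lower and 9.26% higher, so the 6 of 77 lower stood below the background. Mrpl39, a large subunit protein related to threonyl-tRNA synthetase, had 602 counts in the KO library and 1343 in the control library (ratio 0.453, 0.411 to 0.499). Mrps22, a small subunit protein whose loss causes mitochondrial disease in humans, had 281 KO and 631 control counts (0.450, 0.389 to 0.518). Mrpl44, which has a ribonuclease III-like fold and is mutated in an infantile cardiomyopathy in humans, had 347 KO and 775 control counts (0.452, 0.397 to 0.514). All 6 of these genes were lower by at least 2-fold in the KO library, 4 of them in the large and 2 in the small subunit.

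In the large subunit, 20 of 50 measured genes were lower and 1 was higher, with a median log2 ratio of -0.38. The small subunit had 7 of 26 lower, none higher and a median of -0.30. These are 40.0% lower in the large and 26.9% in the small subunit, the second of them near the 21.9% of all genes. For this count each protein was placed by its position in the mammalian ribosome, so Mrps30 and Mrps18a, named after the small subunit, count with the large one. Mrps36 counts with neither, since its protein is known as a subunit of the 2-oxoglutarate dehydrogenase complex. The summed counts gave a ratio of 0.809 (0.801 to 0.818) for the large and 0.835 (0.822 to 0.849) for the small subunit. Whether the subunits differ from each other cannot be tested with 1 library in each group.

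Large subunit proteins with bacterial homologs include the core that binds ribosomal RNA. Of 22 such core genes 9 were lower (40.9%, against 21.9% of all genes) and none higher (median -0.40). Mrpl36, one of the smallest ribosomal proteins, had 528 counts in the KO library and 1047 in the control library (ratio 0.509, 0.458 to 0.566). Mrpl21 had 458 KO and 806 control counts (0.574, 0.511 to 0.644) and Mrpl9 1108 KO and 1924 control counts (0.582, 0.540 to 0.627). Mrpl19, with a ratio of 0.599, shares 36.0% of its exon bases with Gcfc2, which had 153 counts in the KO library and 26 in the control library. Mrpl3 (0.616), Mrpl32 (0.613), Mrpl16 (0.626) and Mrpl34 (0.649) complete the 9 together with Mrpl1. Mrpl32 encodes the protein that is cleaved by the m-AAA protease before it joins the ribosome.

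A second stalk of the large subunit, apart from that of Mrpl1, recruits the GTPases that drive translation. Mrpl10, the base of the stalk, had 733 counts in the KO library and 1445 in the control library (ratio 0.512, 0.468 to 0.560). Mrpl12, which binds to Mrpl10 in several copies, had 2261 KO and 2578 control counts (0.886, 0.837 to 0.938), and Mrpl11, at the foot of the stalk, 1023 KO and 1046 control counts (0.988, 0.905 to 1.08). The 3 genes of this stalk thus covered ratios from near 0.5 to near 1.

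Proteins around the exit of the peptide tunnel also differed among themselves. Mrpl22 had 266 counts in the KO library and 500 in the control library (ratio 0.537, 0.461 to 0.625), and Mrpl47 482 KO and 781 control counts (0.623, 0.555 to 0.699). Of the exon bases of Mrpl47 24.2% overlap other genes, among them Ndufb5, which had 5069 KO and 7327 control counts. Mrpl24 (0.784) and Mrpl17 (0.845) lay between, while Mrpl23 had more counts in the KO library, 1514 KO and 1114 control counts (1.37, 1.27 to 1.48). The processed pseudogene Mrpl23-ps1 had 42 KO and 33 control counts, few beside those of its parent gene. Mrpl45, a mitochondria-specific protein that ties the tunnel exit to the inner membrane, had 855 KO and 1200 control counts and a ratio of 0.720 (0.658 to 0.786), short of the 1.5-fold rule.

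Of the 19 measured mitochondria-specific genes of the large subunit 8 were lower (42.1%, against 21.9% of all genes) and none higher (median -0.46). Mrpl38, Mrpl40 and Mrpl46 belong to the central protuberance, at the top of the large subunit. Mrpl38 had 1415 counts in the KO library and 2456 in the control library (ratio 0.582, 0.545 to 0.621), and Mrpl46 had 543 KO and 1062 control counts (0.516, 0.465 to 0.573). Mrpl40 stood just past the threshold with 340 KO and 521 control counts (0.659, 0.573 to 0.757). The list is completed by Mrpl49 (0.613) and Mrps30 (0.598), beside Mrpl39, Mrpl44 and Mrpl50. Mrpl58, the peptidyl-tRNA hydrolase that frees stalled ribosomes, had 1215 KO and 1243 control counts, and Mrpl54 had 1034 KO and 1047 control counts, with intervals that included 1 in both cases. Mrpl53 had 0 counts in both libraries, which allows up to 3 counts in each. Of its exon bases 88.0% overlap other genes, among them Gm42688, which had 22 KO and 12 control counts.

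In the small subunit the genes with bacterial homologs and the mitochondria-specific ones had different counts of calls. Of 16 genes with bacterial homologs 2 were lower (12.5%, below the 21.9% of all genes) and none higher (median -0.19). These 2 were Mrps14, with 959 counts in the KO library and 1603 in the control library (ratio 0.604, 0.557 to 0.655), and Mrps2, with 1028 KO and 1630 control counts (0.637, 0.589 to 0.689). Mrps12, the homolog of the bacterial protein at the decoding site, had 755 KO and 850 control counts (0.897, 0.812 to 0.991). Mrps21 had 2211 KO and 2217 control counts and Mrps9 1228 KO and 1270 control counts, and both intervals included 1. The remaining genes of this group ran from 0.668 (Mrps10) to 1.12 (Mrps15).

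Of 10 mitochondria-specific genes of the small subunit 5 were lower (50%, against 21.9% of all genes) and none higher, with a median of -0.64. Besides Mrps31 and Mrps22 these were Mrps18b, with 244 counts in the KO library and 486 in the control library (ratio 0.507, 0.433 to 0.593), Mrps27, an RNA-binding pentatricopeptide repeat protein, with 601 KO and 1080 control counts (0.562, 0.508 to 0.622), and Mrps34, with 524 KO and 893 control counts (0.593, 0.531 to 0.661). Of the exon bases of Mrps18b 30.5% overlap Gm16279, which had 69 KO and 47 control counts. The value of Mrps34 is uncertain, since 77.8% of its exon bases overlap other genes, among them Mapk8ip3. The counts of Mapk8ip3 were 6294 in the KO library and 2573 in the control library. Mrps26 was at the other end of this group, with 1251 KO and 908 control counts (1.39, 1.28 to 1.52). Over both subunits, 13 of 29 mitochondria-specific genes (44.8%) and 14 of 46 with bacterial homologs (30.4%) were lower. Their medians were -0.47 and -0.25, a difference that cannot be tested here.

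The 3 genes of the Mrps18 family gave 3 different results. They are paralogs related to the bacterial protein S18. Mrps18c sits at its position, and Mrps18a and Mrps18b sit elsewhere. Mrps18b was therefore counted with the mitochondria-specific proteins, and placing it by descent instead would shift 1 lower gene from those counts to the bacterial homologs. Mrps18a (ENSMUSG00000023967, chromosome 17, 46110986 to 46128910, plus strand), in the large subunit, had 1363 counts in the KO library and 867 in the control library, and its ratio of 1.59 (1.46 to 1.73) was the only call in the higher direction. The call was lost with total counts, at the 2-fold rule and when the trend with GC content, alone or with length, was removed. Mrps18b had a ratio of 0.507 and Mrps18c, with 469 KO and 533 control counts, one of 0.889 (0.783 to 1.01). The 3 intervals did not overlap. The exon overlap of Mrps18b is named above, and 23.2% of the exon bases of Mrps18c overlap Gm43511 (6 KO and 8 control counts).

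Other genes with more counts in the KO library were Mrpl28, with 2069 counts in the KO library and 1561 in the control library (ratio 1.34, 1.25 to 1.43), and Mrpl52, with 942 KO and 746 control counts (1.28, 1.16 to 1.41). Mrpl51, which had the most counts of all in the KO library, had 4621 KO and 4042 control counts (1.15, 1.11 to 1.20). The genes just outside the lower threshold were Mrps10 (0.668), Mrpl4 (0.672) and Mrps23 (0.682), while Mrpl40 (0.659) and Mrpl34 (0.649) were just inside. Apart from these genes and from Mrpl23 (1.37) and Mrps26 (1.39), the genes between the thresholds ran from 0.702 (Mrps28, small subunit) to 1.14 (Mrpl55, large subunit). Mrps36, the dehydrogenase subunit, had 1587 KO and 2059 control counts (0.778, 0.729 to 0.832), and its 3 pseudogenes had at most 42 counts in either library.

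**Figure D3:**
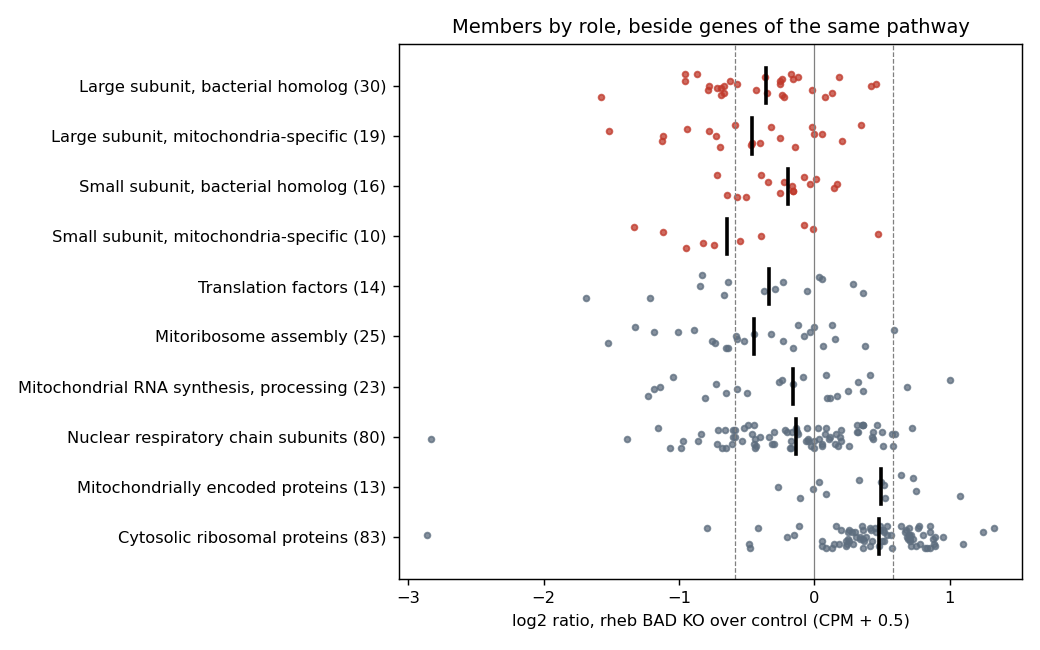
Log2 ratios of rheb BAD KO over control (horizontal axis, CPM + 0.5), 1 point per gene, with the median of each group as a black bar and dashed lines at 1.5-fold; the number of genes is in brackets. Red points are 75 mitochondrial ribosomal protein genes by role (Mrps18a and Mrps36 are left out), and grey points are other genes of the pathway and of the cytosolic ribosome, whose median of 0.48 lies on the other side of 0.

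Levels were compared between genes per kilobase of exon, with the exon lengths of the deposited table. These lengths join all annotated exons of a gene and so understate the level of genes with rarely used exons. Mrpl34 had the highest level in both libraries, with 150.4 CPM per kilobase in the KO library and 232 in the control library. Next in the control library came Mrps21 with 132 in KO and 131 in control, Mrpl2 with 72.1 in KO and 84.3 in control, and Mrpl12 with 65.2 in KO and 73.6 in control. Mrps36, Mrpl27, Mrpl20, Mrps7, Mrps24 and Mrpl54 completed the 10 highest of the control library, at 44.2 to 63.4 CPM per kilobase in the KO library and 55.5 to 70.7 in the control library. Of these 10, 1 was called lower, Mrpl34, beside 21.9% of all genes. The 10 were picked by their level in the control library, and a link between level and ratio was not tested. The median over the kept genes was 15.7 CPM per kilobase in the KO library and 22.3 in the control library, and the order of levels was similar in both (Spearman's rho 0.94 over 77 genes, a description of libraries that share the genes' lengths).

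**Figure D4:**
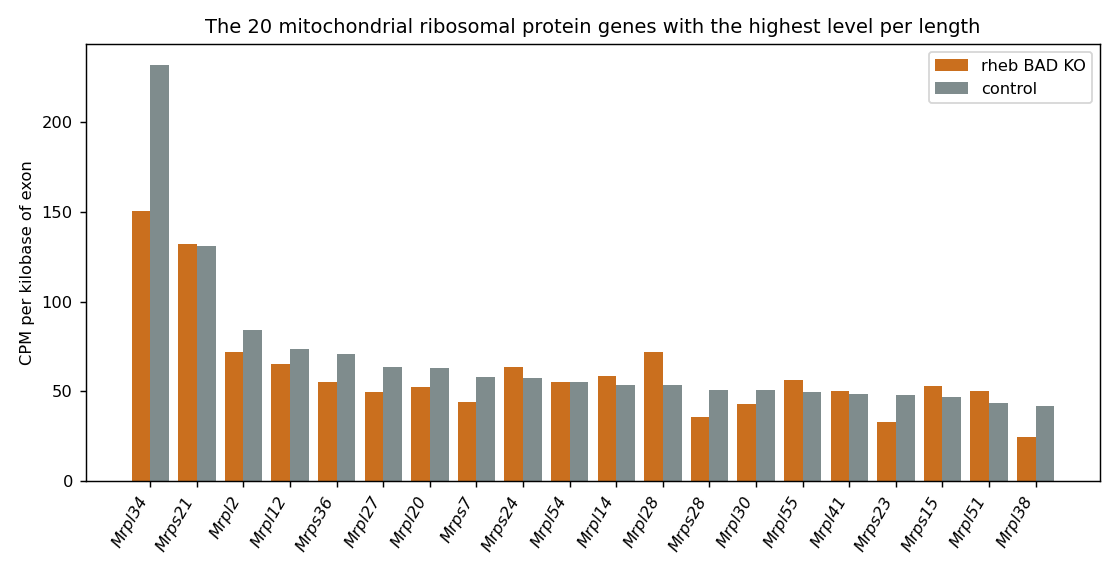
Level per length (CPM per kilobase of exon) in the KO library (orange) and the control library (grey) for the 20 genes highest in the control library. Mrpl34 stands at 150.4 in KO and 232 in control, while Mrps21 is at 132 in KO and 131 in control.

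Subunits of the mitochondrial ribosome that carry other symbols were looked at separately. Of 5 such genes 1 was lower (20%, near the 21.9% of all genes) and none higher (median -0.27). Gadd45gip1, a large subunit protein, had 396 counts in the KO library and 835 in the control library (ratio 0.479, 0.424 to 0.540). Dap3, a GTP-binding protein of the small subunit, had 1096 KO and 1331 control counts (0.832), Ptcd3 1814 KO and 2219 control counts (0.826) and Chchd1 1073 KO and 1471 control counts (0.737). Aurkaip1 had 2419 KO and 2536 control counts, with an interval that included 1.

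Genes that assemble the mitochondrial ribosome or modify its RNA were lower in 9 of 25 cases (36%, against 21.9% of all genes) and higher in 1. Their median was -0.45, and -0.32 with a filter of 10 CPM or the GC trend removed. Noa1, a GTPase needed for mitochondrial translation, had 149 counts in the KO library and 454 in the control library (ratio 0.331). Mettl15, which methylates the small ribosomal RNA, had 24 KO and 78 control counts (0.311, 0.188 to 0.496), Trub2, a pseudouridine synthase family member, 208 KO and 491 control counts (0.428), and Mterf4, which brings a methyltransferase to the large subunit, 199 KO and 415 control counts (0.484). The 1 higher gene was Mrm1, an RNA methyltransferase, with 442 KO and 293 control counts (1.52, 1.31 to 1.77), named after its value was seen. Its call was lost with DESeq2 size factors, total counts, a pseudocount of 2, the 2-fold rule, protein-coding genes only and the GC trend removed, and 5 genes were lower with the filter of 10 CPM.

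Translation factors of mitochondria had 6 of 14 lower (42.9%, against 21.9% of all genes) and none higher (median -0.33). Taco1, an activator of the translation of Co1, had 145 counts in the KO library and 497 in the control library (ratio 0.295, 0.243 to 0.355). The elongation factor Gfm1 had 907 KO and 2139 control counts (0.428, 0.396 to 0.463), the initiation factor Mtif3 198 KO and 368 control counts (0.543) and the recycling factor Mrrf 339 KO and 619 control counts (0.553). Of 23 genes of mitochondrial transcription and RNA processing, 7 were lower (30.4%, against 21.9% of all genes) and 2 higher (median -0.16). That median was -0.04 with the reduced total and -0.06 with the GC trend removed. Tefm, a transcription elongation factor, had 119 KO and 297 control counts (0.405), Tfb2m, which opens mitochondrial promoters, 570 KO and 1325 control counts (0.434), the RNA-binding protein gene Lrpprc 885 KO and 1987 control counts (0.450), and Hsd17b10, a subunit of ribonuclease P, 1743 KO and 3650 control counts (0.482). The 2 higher genes were Mterf1b, with 67 KO and 28 control counts (2.42, 1.53 to 3.90), and Tbrg4, with 3613 KO and 2264 control counts (1.61, 1.53 to 1.70).

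The RNA partners of these proteins were higher in the KO library. The small mitochondrial ribosomal RNA, mt-Rnr1, had 64909 counts in the KO library and 32793 in the control library (ratio 2.00, 1.97 to 2.03), and the large one, mt-Rnr2, 73908 KO and 46108 control counts (1.62, 1.60 to 1.64). The 13 mitochondrially encoded proteins, which these ribosomes make, had 4 genes higher (30.8%, against 21.9% of all genes) and none lower (median 0.49). The ratios of the 4 were 2.11 for mt-Nd3, 1.68 for mt-Co1, 1.66 for mt-Nd1 and 1.56 for mt-Co2. Levels of mitochondrial transcripts are uncertain where reads are shared with nuclear copies. Messenger RNA was purified before the libraries were made, a step that need not keep ribosomal RNA in proportion. The median of the 13 genes kept its sign under each scaling run, which is no check, since a scaling shifts all log2 ratios nearly alike.

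Nuclear subunits of the respiratory chain and ATP synthase, taken by symbol, had 18 of 80 lower and 2 higher (median -0.13). The share lower of 22.5% is near the background of 21.9%. Their share higher of 2.5% is below the 21.9% of all genes, as it was for the mitochondrial ribosomal protein genes. With the reduced total 10 were lower and 7 higher, beside 18.1% lower and 27.1% higher over all genes. Their lowest member, Cox6a2, a muscle isoform, had 101 counts in the KO library and 797 in the control library, and the next were Uqcrc2 (0.383), Atp5g1 (0.442) and Ndufa10 (0.477), while Cox4i2 (1.76) and Ndufa2 (1.51) were higher. Proteins of the cytosolic ribosome had 31 of 83 genes higher (37.3%, against 21.9% of all genes) and 2 lower (median 0.48). With total counts 19 were higher and 4 lower (median 0.35), beside 17.4% and 27.2% of all genes. Rps28 had 2673 counts in the KO library and 1068 in the control library (2.53, 2.35 to 2.72), Rpl38 3853 KO and 1633 control counts (2.38) and Rpsa 29825 KO and 14053 control counts (2.14), and the muscle paralog Rpl3l had 52 KO and 453 control counts. The other gene called lower was Rps10, with 33 KO and 66 control counts (0.505, 0.322 to 0.778). These are few for this list, whose genes had a median level of 228 CPM, and with a filter of 10 CPM only 1 gene was lower. Ribosomal protein genes of the cytosol and the mitochondrion thus had medians of opposite sign in these 2 libraries. The signs also held under each scaling run, but a scaling shifts all log2 ratios nearly alike, so this is no check. No test of that difference is possible.

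Among the members, GC content moved with the ratio. The 25 genes with the lowest GC content of the longest coding transcript (39.6% to 47.2%) had a median log2 ratio of -0.40 with 10 lower and none higher, the 27 in the middle one of -0.36 with 10 lower, and the 25 with the highest GC content (52.6% to 60.6%) one of -0.17 with 7 lower and 1 higher. All genes kept in the same ranges had medians of -0.14, -0.04 and 0.15, so these genes lay below the others in each range. Of all genes in these ranges 26.2%, 22.9% and 17.5% were lower and 16.2%, 20.5% and 27.2% higher. Between GC content and log2 ratio, Pearson's r was 0.28 and Spearman's rho 0.23 over the 77 genes, against 0.13 and 0.17 over 12960 genes, as a description of 1 pair of libraries. With the trend of all genes removed, the median was -0.31, 24 genes were lower and none higher, and 23 of the 27 lower calls were kept, beside 21.5% lower and 21.2% higher over all genes. With GC and length removed together, which was added after the data were seen, 22 were lower and none higher, beside 21.0% lower and 20.8% higher over all genes.

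Promoters of 4 genes are shown here as examples of sequence. Each window, taken from RefSeq on GRCm38.p6, runs from 250 bases before the start of the gene to 50 bases after it and is read along the gene's own strand. Capitals mark exact matches, on either strand, to short cores of factors known to act at nuclear genes of mitochondria. The cores searched were GCATGCG for NRF1, CCGGAAG for the ETS family and GABP, AAGATGG for YY1 and AAGGTCA for the estrogen-related receptors (ERR). The NRF1 core is nearly its own reverse complement, so matches on the 2 strands can overlap. Mrpl32 and Mrps27 share their start region with a gene on the opposite strand that was lower together with them, Mrpl50 shares its own with a gene that was higher, and Mrps18a was the only member called higher.
Mrpl32, chr13:14612988-14613287, minus strand: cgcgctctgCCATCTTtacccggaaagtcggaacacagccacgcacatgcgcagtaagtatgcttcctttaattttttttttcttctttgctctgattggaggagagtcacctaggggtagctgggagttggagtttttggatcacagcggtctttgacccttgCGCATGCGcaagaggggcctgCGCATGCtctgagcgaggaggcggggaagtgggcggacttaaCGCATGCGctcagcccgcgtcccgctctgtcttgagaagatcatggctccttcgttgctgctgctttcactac
Mrps27, chr13:99344536-99344835, plus strand: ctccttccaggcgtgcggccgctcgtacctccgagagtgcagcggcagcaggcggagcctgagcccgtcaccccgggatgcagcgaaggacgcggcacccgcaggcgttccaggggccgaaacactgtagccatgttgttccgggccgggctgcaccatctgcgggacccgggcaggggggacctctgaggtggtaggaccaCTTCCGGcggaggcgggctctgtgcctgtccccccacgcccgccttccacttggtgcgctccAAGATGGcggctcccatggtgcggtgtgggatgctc
Mrpl50, chr4:49521034-49521333, minus strand: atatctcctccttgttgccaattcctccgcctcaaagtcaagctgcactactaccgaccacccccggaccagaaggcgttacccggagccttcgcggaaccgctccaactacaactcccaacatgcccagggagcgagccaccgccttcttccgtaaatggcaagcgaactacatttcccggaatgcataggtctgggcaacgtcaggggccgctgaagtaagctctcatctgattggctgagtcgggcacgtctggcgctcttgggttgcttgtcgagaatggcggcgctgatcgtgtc
Mrps18a, chr17:46110754-46111053, plus strand: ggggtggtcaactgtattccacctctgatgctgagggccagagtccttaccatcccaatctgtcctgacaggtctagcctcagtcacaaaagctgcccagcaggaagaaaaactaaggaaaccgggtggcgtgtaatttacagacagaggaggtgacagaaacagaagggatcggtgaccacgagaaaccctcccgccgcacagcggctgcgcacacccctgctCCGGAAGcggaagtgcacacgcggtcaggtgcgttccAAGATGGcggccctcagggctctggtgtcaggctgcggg

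The Mrpl32 window held the NRF1 core at 86, 65 and 23 bases before the start, the first and last of them on both strands, and the YY1 core at its far end. The Mrps27 window held the ETS core 48 bases before the start and the YY1 core 14 bases after it. In the Mrps18a window the ETS core lay 26 bases before the start and the YY1 core 11 bases after it. None of the 4 cores was found in the window of Mrpl50, which says only that these letters are not there. RefSeq windows were matched for 69 of the 78 genes, and the unmatched genes were Mrpl13, Mrpl15, Mrpl19, Mrpl38, Mrpl4, Mrpl54, Mrps28, Mrps34 and Mrps35.

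Motif cores in the promoter windows were set beside all genes kept that have a window (9685). The ETS core was present in 26 of 69 genes (37.7%), against 20.1% of genes kept and 9.93% of all 27025 genes with a window. The YY1 core was present in 13 (18.8% against 8.35% and 7.28%), the NRF1 core in 8 (11.6% against 7.29% and 4.01%) and the ERR core in 4 (5.80% against 4.02% and 5.38%). The 8 genes with the NRF1 core, among them Mrpl32 and Mrpl39, had 6 lower and a median log2 ratio of -0.82, and the 60 measured genes without it 18 lower and a median of -0.33. With the ETS core 7 of 25 were lower (median -0.26) and without it 17 of 43 (-0.39). With the YY1 core 4 of 13 were lower (-0.39) and without it 20 of 55 (-0.35). With the ERR core 1 of 4 was lower (-0.08) and without it 23 of 64 (-0.36). The share called lower among all genes kept that carry a core was not computed, and a link between a core and the ratio was not tested. A match describes letters and not binding.

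Of the 78 genes 33 start within 1000 bases of a protein-coding gene on the opposite strand, so that the pair can share a promoter region. There were 32 such pairs, since Mrpl46 and Mrps11 are each other's partner, and in 27 pairs the partner was kept. In 10 of these 27 pairs both genes had log2 ratios of the same sign. The partners had a median log2 ratio of 0.23, with 3 lower (Psma2, Ptcd2 and Rab6a) and 7 higher when Mrps11 is counted as the partner of Mrpl46. In 12 pairs the ribosomal protein gene was called lower, and its partner was then lower in 2, higher in 5 and between in 5. Beside these small counts of partners stand 21.9% lower and 21.9% higher over all genes kept. The kit does not mark strand, so where exons of a pair overlap, reads cannot be told apart. Over all kept genes of the list, 31 had some exon overlap with another gene and 2 had over 50%, namely Mrps34 and Mrps25 (69.8%, with Nr2c2).

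Both genes were lower in 2 pairs whose promoters are printed above. Mrpl32 had 382 counts in the KO library and 629 in the control library, and Psma2, a proteasome subunit gene, 1256 KO and 2072 control counts (ratio 0.612, 0.570 to 0.657). Mrps27 was joined by Ptcd2, which encodes a mitochondrial RNA-processing protein and starts 81 bases away, with 600 KO and 1008 control counts (0.601, 0.542 to 0.666). The ratios of the 2 genes of each pair overlapped within their counting intervals.

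The partner was higher in 5 pairs in which the ribosomal protein gene was lower. Zfp189, a zinc finger gene that starts 93 bases upstream of the Mrpl50 start in the window shown, had 150 counts in the KO library and 95 in the control library (ratio 1.59, 1.23 to 2.08), against 0.345 for Mrpl50. Fau, which encodes a fusion of a ubiquitin-like protein with the cytosolic ribosomal protein S30, had 6878 KO and 4063 control counts (1.71, 1.64 to 1.78), beside 450 KO and 742 control counts for Mrpl49. Ighmbp2, a helicase gene, had 263 KO and 108 control counts (2.46, 1.96 to 3.11), beside Mrpl21, and Wdfy1 760 KO and 469 control counts (1.64, 1.46 to 1.84), beside Mrpl44. Exons overlap in both of these pairs, over 5.82% of the exon bases of Mrpl21 and 7.66% of those of Mrpl44. The last pair, Mrps34 and Eme2 (639 KO and 266 control counts), contains the overlap with Mapk8ip3 named above. Mrpl46 (0.516) and Mrps11 (0.785), both ribosomal protein genes, were on the same side of 1 but their intervals did not overlap, and 12.2% of the exon bases of Mrpl46 overlap Mrps11.

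**Figure D5:**
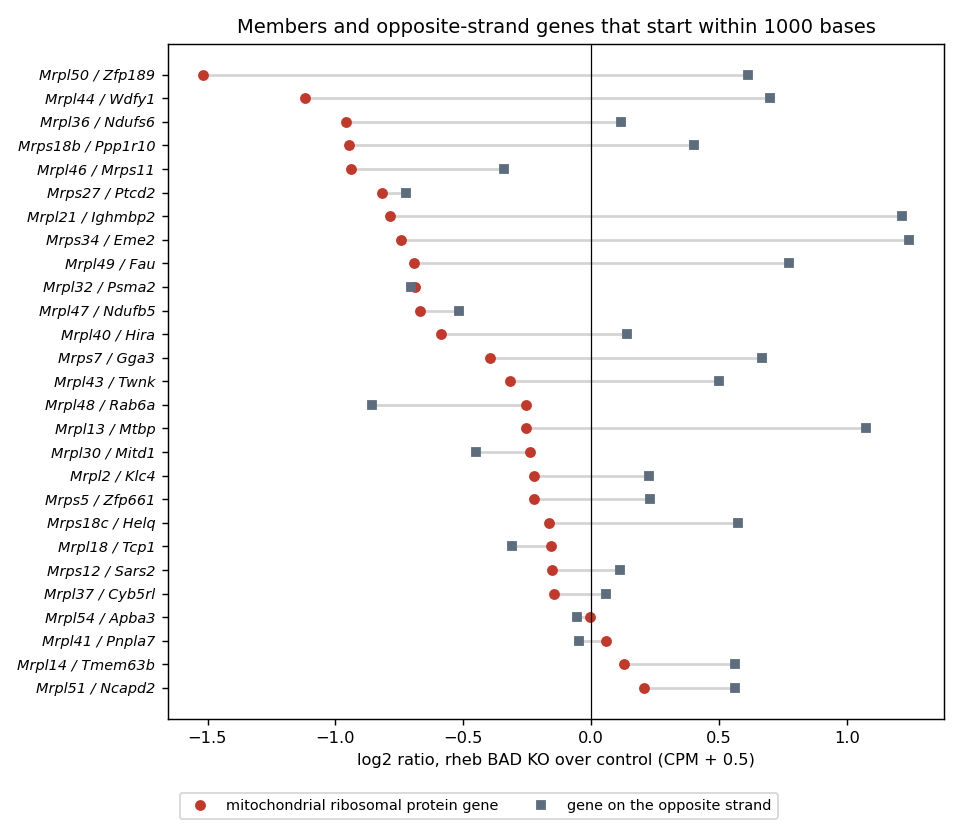
Log2 ratios of rheb BAD KO over control (CPM + 0.5) for the 27 pairs with a kept partner, with the ribosomal protein gene as a red circle and the opposite-strand gene as a grey square, joined by a line. The longest lines belong to pairs such as Mrpl50 and Zfp189, while Mrpl32 and Psma2 nearly coincide.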

How the data were processed

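The deposited table holds raw counts per gene for both libraries, with no normalization by the authors. Per the submitters' processing notes, Trimmomatic, HISAT2 and featureCounts were used with mm10. Their versions, the annotation release and the handling of shared reads: not given in the sources used here. The labels' protocols name Trizol extraction and the TruSeq RNA v2 kit, which does not mark strand.

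TMM factors came from edgeR 4.0.16 (R 4.3.3). Ratios are scaled counts of rheb BAD KO over control, and log2 ratios use CPM plus 0.5, which understates low genes. Genes averaging 1 CPM or more were kept. A symbol with several identifiers was read as the one with most counts. Gene types and transcript GC content came from GENCODE M21 (GRCm38), which matched 54495 identifiers, and promoters from RefSeq. Trends with GC content and length were smoothed by lowess (span 0.3, statsmodels 0.14.6). Calls and trends were tested on simulated data. The counts simulated for the calls held counting error only, so that test says nothing about the spread between mice.

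Members and lists were chosen with earlier results of these data known. By rule, the text names all members past 1.5-fold, the 10 highest per length, those nearest the threshold, unmeasured members, Mrps36, Rheb and up to 4 genes per list by size of log2 ratio. All other genes named were chosen after their values were seen.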

Additional observations from a re-analysis of the deposited data

How the results depend on the processing

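No paired analysis was possible because there is 1 pooled library per group, and none could be left out. The median log2 ratio of the mitochondrial ribosomal protein genes, and those of both subunits, stayed below 0 under every alternative run. For several runs this was fixed in advance. A fold threshold does not enter a median, and both other filters kept the same members. The scalings shift all log2 ratios nearly alike, by less than the distance of these medians from 0. With total counts the medians were -0.49 for all members, -0.51 for the large and -0.43 for the small subunit, 33 members were lower and none was higher, in the large subunit too. With total counts without mitochondrially encoded genes and their chromosome 1 pseudogenes, the medians were -0.23, -0.25 and -0.17, 19 members were lower and 2 higher, with 13 lower in the large subunit and 1 higher in the small one. At a threshold of 2-fold 6 of 77 members were lower, 4 in the large and 2 in the small subunit. None were higher in all or in the large subunit. These shares lower lay below the 9.97% of all genes, so the excess of lower calls was not seen at 2-fold. With the GC trend removed, 0 were higher in all and in the large subunit, and with GC and length together, an alternative added after the data were seen, 22 were lower and 0 higher. Without members whose span overlaps another detected gene, 43 members remained, of which 13 were lower and 0 higher. These are 30.2% lower, against 35.1% of all kept members and 21.9% of all genes, which were not cut down in the same way. Of the 27 lower calls, 27 were kept with total counts, 23 with the GC trend removed and 20 with GC and length removed. Total counts shift the ratios down, so that keeping all lower calls there was fixed in advance. Across the other scalings, filters and pseudocounts together, 19 of the 27 were kept. DESeq2 1.42.0 size factors, the length trend, protein-coding genes only, both other filters, both other pseudocounts and leaving out Mrps36 kept the count of lower members within 1.5 times. The median of the nuclear respiratory chain subunits was -0.004 with the reduced total. Where a setting moved a value, the cause was not tested. Mrpl53 had 0 counts, and whether depth or overlap with other genes accounts for it was not tested.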
